A study of Homo sapiens with 402 samples.

Results

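The 10 genes described here move zinc and copper across the membranes of human cells or carry and sense these metals inside them: SLC30A1, SLC39A6, SLC39A10, MTF1, SLC31A1, SLC31A2, ATP7A, ATP7B, ATOX1 and CCS. They were taken by symbol from the count files, where all 10 were listed among the 15081 genes of sequencing run 1 and the 34718 genes of run 2, and no measured value chose them. The cells were MCF10A, a wild-type, non-tumorigenic breast epithelial line, at passage 105, exposed for 48 h to 1 of 21 chemicals at 0.025, 0.25, 2.5 or 25 µM. The study asked how each exposure changed expression. RNA was read by plexWell sequencing, which makes cDNA directly from the lysed cells of each well and tags it before pooling.

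There were 333 dosed and 69 control libraries, and the labels describe the 4 wells of a dose as biological replicates of this 1 line. Arsenic, cadmium, copper, lead and mercury shared plate 3153-AT and its 15 controls, labelled water. BPA, BPF, BPS, MPB and PPB shared plate 3206-AT and 15 DMSO controls, and DCB_14, DCP_25, PCB153, PCB187 and thiram shared plate 3284-AT and 15 DMSO controls. On plate 3240-AT, PFDA, PFNA, PFOS and phenanthrene were set against 12 DMSO controls and PFOA against 4 water controls. DDE, labelled DMSO, came from the earlier run with 8 controls that carry the barcode of its plate but are labelled water and plate 3153-AT. Comparisons on 1 plate share their controls and are therefore not independent of each other. MPB and PPB at 0.025 µM had 3 libraries each. Cadmium at 25 µM had 2 libraries after another library, whose title carries the barcode of plate 3284-AT, was set aside.

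Totals (in M, mega-counts) ran from 1.43 to 25.8 M over the 401 libraries tested, with plate medians of 6.42 to 13.8 M. The 2 cadmium libraries at 25 µM had 1.43 and 1.45 M counts, and thiram at 25 µM had 2.46 to 6.29 M. On plate 3153-AT the 8 low-numbered controls had a median of 20.9 M counts and the 7 high-numbered ones 3.17 M. On plate 3284-AT these medians were 17.9 and 3.18 M. Dosed libraries numbered 1 and 2 are called low-numbered below, and those numbered 3 and 4 high-numbered. Keratins of breast epithelium were abundant in the controls (KRT5 at 703 to 4874 and KRT18 at 315 to 655 CPM, counts scaled to a common library total), while the basal keratin KRT14 averaged 7.96 CPM in the DMSO controls of plate 3240-AT and 986 in run 1. The epithelial genes EPCAM and CDH1 were low in the same DMSO controls (means of 8.12 and 5.22 CPM, against 57.6 and 84.6 in run 1), where VIM, which MCF10A also expresses, averaged 948 CPM. The leukocyte gene PTPRC was at 0.392 CPM or less.

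Zinc enters the cytosol through importers of the SLC39 (ZIP) family and leaves it through exporters of the SLC30 (ZnT) family. The zinc-sensing transcription factor MTF1 binds metal response elements in DNA and turns on SLC30A1, the exporter of the plasma membrane, and the metallothioneins, small proteins that bind zinc, copper and cadmium. Copper enters through SLC31A1 (CTR1), is handed by the chaperones ATOX1 and CCS to the pumps ATP7A and ATP7B and to superoxide dismutase, and is kept low by the pumps. Thiram is a dithiocarbamate fungicide, a class known to bind metal ions.

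The promoter of SLC30A1 is shown first because SLC30A1 was the member called in most chemicals, beside that of the metallothionein MT1X for comparison. Both windows come from RefSeq (GRCh38.p14), run from 250 bases before to 50 bases after the annotated start, and are read on the gene's own strand. Capitals mark every match to the metal response element core, TGCACNC or TGCGCNC, on either strand. The SLC30A1 window lies at chr1:211579112-211579411 on the minus strand, and the MT1X window at chr16:56682220-56682519 on the plus strand.
SLC30A1: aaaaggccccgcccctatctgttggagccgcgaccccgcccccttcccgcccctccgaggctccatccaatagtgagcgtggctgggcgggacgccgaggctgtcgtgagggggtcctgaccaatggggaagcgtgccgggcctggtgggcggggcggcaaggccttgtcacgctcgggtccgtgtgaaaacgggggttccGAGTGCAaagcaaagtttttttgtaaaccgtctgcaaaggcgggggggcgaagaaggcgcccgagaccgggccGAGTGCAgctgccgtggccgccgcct
MT1X: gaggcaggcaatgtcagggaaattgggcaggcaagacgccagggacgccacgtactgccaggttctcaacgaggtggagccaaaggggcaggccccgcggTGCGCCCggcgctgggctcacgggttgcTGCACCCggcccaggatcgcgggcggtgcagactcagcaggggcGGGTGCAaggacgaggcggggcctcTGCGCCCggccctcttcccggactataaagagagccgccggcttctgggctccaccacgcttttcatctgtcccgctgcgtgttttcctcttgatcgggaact
The SLC30A1 window held 2 matches, starting 49 bases before and 24 bases after the start, and the MT1X window held 4. Of all 35116 windows of this length, 29.6% held at least 1 match and 8.6% at least 2. Among the members, SLC39A6 had 1 match, 1 of the 2 windows of SLC39A10 had 1, the 3 windows of ATP7B had 1, 2 and 0, and ATOX1 and CCS each had 2 that overlap. MTF1, SLC31A1 and ATP7A had none in their windows, and SLC31A2 has no window in the table. A match is a stretch of letters, and no binding was measured.

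In the RefSeq annotation of GRCh38.p14 the zinc genes lie on chromosome 1 (SLC30A1, 211571568 to 211579161; MTF1, 37809574 to 37859592), chromosome 2 (SLC39A10, 195613029 to 195737700) and chromosome 18 (SLC39A6, 36108531 to 36129340). The copper genes lie on chromosome 9 (SLC31A2, 113151007 to 113164140; SLC31A1, 113221544 to 113264492), chromosome X (ATP7A, 77910693 to 78050395), chromosome 13 (ATP7B, 51932669 to 52012132), chromosome 5 (ATOX1, 151742822 to 151758631) and chromosome 11 (CCS, 66593185 to 66606019). Whether counting used strand is not given in the sources used here, so reads of SLC31A2 and FKBP15, of ATP7B and TMEM272, of ATP7A and PGAM4, of SLC31A1 and LOC107987119, and of ATOX1 and ATOX1-AS1, which overlap, may not be separable.

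All CPM values are relative to the TMM-scaled library total. They are not per length and are compared for 1 gene at a time. SLC30A1 averaged 25.99 CPM (PCB187 at 0.25 µM) to 980.5 CPM (thiram at 25 µM) over the 84 dosed groups, with a median of 36.8 CPM and arsenic at 25 µM second at 195 CPM. SLC31A1 averaged 5.31 CPM in cadmium and 198 CPM in arsenic, both at 25 µM, around a median of 46.3 CPM, and the next highest group was thiram at 25 µM with 58.7 CPM. SLC39A6 averaged 74.3 to 131 CPM, SLC39A10 12.5 to 54.2 CPM, MTF1 6.28 to 30.8 CPM, ATOX1 45.5 to 205 CPM and CCS 20.5 to 40.0 CPM. SLC39A6 and SLC39A10 import zinc, and ATOX1 and CCS are copper chaperones. The copper pumps were sparsely counted, with a median of 49 counts per library for ATP7A and 18 for ATP7B. SLC31A2, a copper transporter of inner membranes, had a median of 4 counts and was at 0 in 146 of 401 libraries.

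At 25 µM, 15 of the 210 pairs of gene and chemical passed the test (edgeR quasi-likelihood test, Benjamini-Hochberg adjusted p under 0.05 over all genes of the comparison), 10 higher and 5 lower. Over the same 21 comparisons 4.85% of all gene tests were called. Arsenic called 7 of the 10 genes, where 41.4% of all genes were called, so a high share of calls was general there. Thiram called 3 of 10 against 25.9%, cadmium 3 of 10 against 11%, lead 1 of 10 against 3.85% and MPB 1 of 10 against 1.38%. In cadmium DESeq2 called 6 of 10 against 27%. Its median over all genes there lay 1.49 higher on the log2 scale, while RLE scaling in edgeR moved that median by 0.17. The other 16 chemicals called none of 160 tests by edgeR, with 23 at an unadjusted p under 0.05 and 1 called by DESeq2. Of these chemicals, copper called 5.09% and DDE 7.77% of all genes, and each of the others at most 15 genes (mercury, of 24295). Shares of all genes were not pooled over the 16, so these counts are not read as results about the members. SLC30A1 was the member called in most chemicals (arsenic, cadmium, lead and thiram, higher in each), followed by SLC31A1, SLC39A6, MTF1 and ATOX1 in 2 chemicals each, and SLC39A10, ATP7A and ATP7B in 1. CCS and SLC31A2 were called in none.

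**Figure D1:**
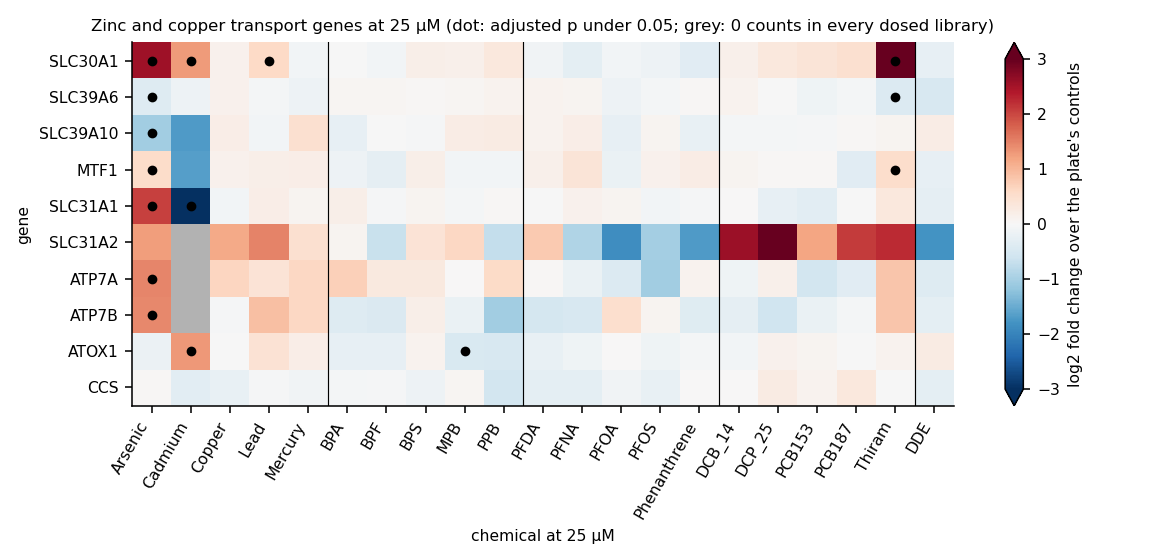
Log2 fold change of each of the 10 genes (vertical axis) in each of the 21 chemicals at 25 µM (horizontal axis) over the controls of the same plate, on a colour scale that ends at -3 and 3. Black dots mark the 15 calls, vertical lines separate plates, and grey marks cadmium groups with 0 counts; 7 dots are in the arsenic column, and the strongly coloured SLC31A2 cells carry no dot.

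SLC30A1, which exports zinc from the cytosol, stood at 958, 1205, 924 and 835 CPM in the 4 thiram libraries at 25 µM, against 20.2 to 59.7 CPM (median 28.3) in the 15 controls of the plate. Every thiram library was far above the highest control. The fitted difference was 34.9-fold (log2 5.13 ± 0.12 SE, adjusted p = 1.30e-64), and it was 5.37 within the low-numbered and 4.55 within the high-numbered libraries. In arsenic at 25 µM the libraries read 209.8, 179.8, 194 and 197 CPM, against 24.2 to 50.4 CPM (median 34.2) in the 15 controls. These groups did not overlap either, and SLC30A1 was 5.82-fold higher (log2 2.54 ± 0.15, adjusted p = 8.59e-29; 2.72 and 2.32 in low- and high-numbered libraries).

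In cadmium at 25 µM, SLC30A1 read 75.3 and 86.8 CPM from 60 and 62 counts, above all 15 controls (log2 1.27 ± 0.44, adjusted p = 0.044, n = 2). The call was lost without replicate 1 (adjusted p = 0.25) and without replicate 2 (adjusted p = 0.42), each of which leaves 1 cadmium library. At 2.5 µM, where cadmium had 4 full-depth libraries, the gene read 69.3, 63.1, 61.8 and 69.2 CPM, again above every control and 1.962-fold higher (log2 0.97 ± 0.16, adjusted p = 3.12e-05). In that comparison 0.235% of all genes were called. The log2 difference was 1.13 in low-numbered libraries and 0.64 in high-numbered ones, where it was not called (adjusted p = 0.18).

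Smaller differences in SLC30A1 were called for lead and for the lower thiram dose. Lead at 25 µM read 54.2, 40.6, 52.1 and 55.1 CPM, with 1 library inside the control range (log2 0.59 ± 0.16, adjusted p = 0.017). DESeq2 did not call it (adjusted p = 0.077), nor did high-numbered libraries alone (log2 0.34, adjusted p = 0.42) or fits without replicate 1, 3 or 4 (adjusted p = 0.092, 0.064 and 0.065). Thiram at 2.5 µM read 38.5 and 34.96 CPM in the low-numbered and 60.3 and 64.5 CPM in the high-numbered libraries (log2 0.79 ± 0.16, adjusted p = 0.0079), where 0.0329% of all genes were called. The high-numbered controls of that plate also read higher (25.3 to 59.7 CPM) than the low-numbered ones (20.2 to 30.1 CPM), and neither DESeq2 (adjusted p = 0.40) nor either set of libraries alone called the thiram difference at 2.5 µM. It was also lost without replicate 3 (adjusted p = 0.36) and without replicate 4 (adjusted p = 1). In copper and mercury at 25 µM SLC30A1 overlapped the controls (log2 0.13 ± 0.17 and -0.08 ± 0.18). Over the 17 chemicals without a call its log2 fold change at 25 µM lay between -0.33 (phenanthrene) and 0.48 (PCB187).

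**Figure D2:**
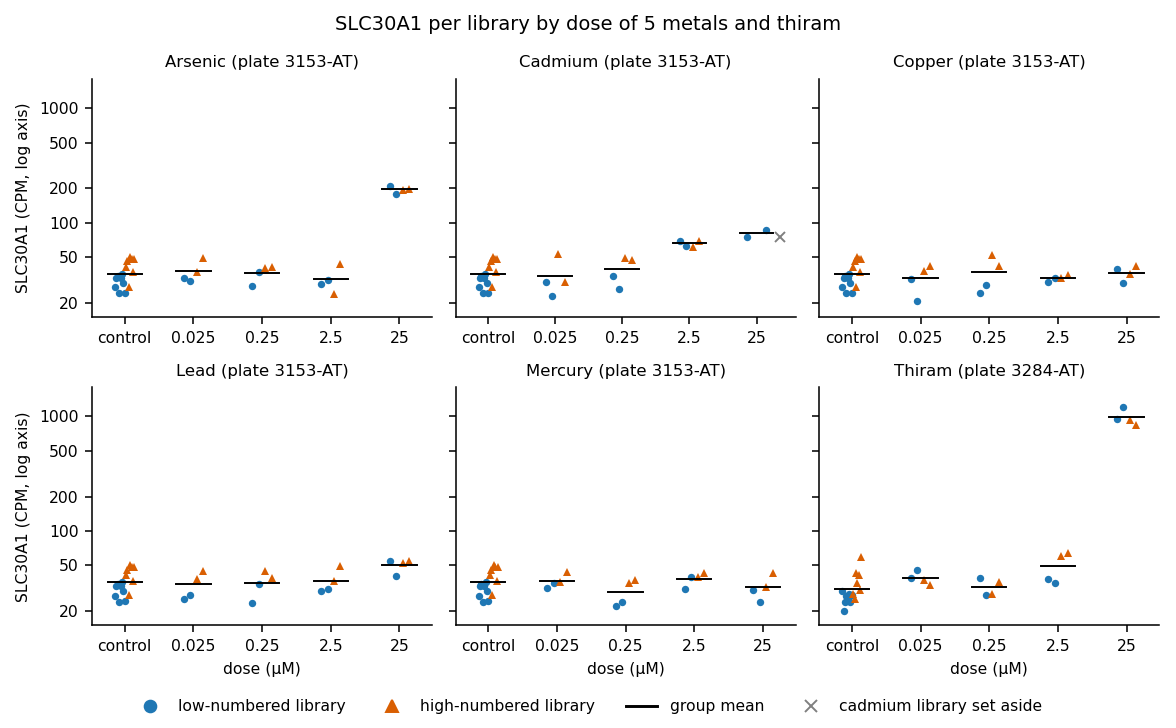
SLC30A1 in CPM on a log axis, 1 point per library, by dose of 5 metals and thiram, with circles for low-numbered and triangles for high-numbered libraries and lines for group means. Thiram at 25 µM sits at 835 to 1205 CPM and arsenic at 179.8 to 209.8 CPM, cadmium is above its controls at 2.5 and 25 µM, and copper and mercury overlap theirs at every dose; the cross is the cadmium library set aside (74.8 CPM).

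Both zinc importers among the members fell in arsenic, and SLC39A6 also in thiram. SLC39A10 read 20.1, 17.5, 12.6 and 22.7 CPM in arsenic at 25 µM against 26.5 to 72.3 CPM in the controls, so every arsenic library was below every control (2.07-fold lower, log2 -1.05 ± 0.20, adjusted p = 6.00e-06). Low- and high-numbered libraries gave log2 -0.76 and -1.40. SLC39A6 read 76.5, 80.2, 75.1 and 99.2 CPM in arsenic against 89.0 to 130.0 CPM in the controls. It fell by 0.39 ± 0.11 on the log2 scale (adjusted p = 0.0035), with 1 library inside the control range, and -0.18 in high-numbered libraries was not called (adjusted p = 0.41). RLE scaling, which moved the median of all genes in arsenic by 0.14, gave -0.25 (adjusted p = 0.060).

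In thiram at 25 µM, SLC39A6 read 78.3, 91.2, 68.5 and 59.2 CPM against 75.7 to 165 CPM in the controls and fell by 0.42 ± 0.13 on the log2 scale (adjusted p = 0.0063). The values within low- and high-numbered libraries were -0.26, not called (adjusted p = 0.35), and -0.72, and the call was lost without replicate 3 (adjusted p = 0.051). SLC39A10 differed little there (log2 0.07 ± 0.21, adjusted p = 0.83). In DDE at 25 µM SLC39A6 read 130.0, 120.1, 93.6 and 110 CPM, below its 8 controls at 131.5 to 215 CPM, with log2 -0.49 ± 0.16 and adjusted p = 0.060. DESeq2 called that difference (log2 -0.52, adjusted p = 0.034), and 7.77% of all genes were called in DDE at 25 µM. SLC39A6 was also lower at 0.025, 0.25 and 2.5 µM DDE (log2 -0.32, -0.43 and -0.28), without a call in the main edgeR fit. It had no called trend over the DDE doses (log2 -0.04 ± 0.06 per dose step). DDE is labelled DMSO and its controls water, and the part of solvent in these differences was not tested. Where both solvents had controls, SLC39A6 was log2 0.21 ± 0.09 higher in water, without a call (adjusted p = 0.21). In mercury at 25 µM SLC39A10 averaged 54.2 ± 6.75 CPM (SD, n = 4), its highest group mean, without a call (log2 0.48 ± 0.16, adjusted p = 0.71). Low-numbered libraries alone called that difference (log2 0.63 ± 0.14, adjusted p = 0.036).

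MTF1, the zinc-sensing factor, was called higher in arsenic and thiram. It read 26.9, 34.5, 31.1 and 30.2 CPM in arsenic at 25 µM against a control median of 20.3 CPM and range of 9.19 to 38.05 CPM (1.47-fold, log2 0.56 ± 0.15, adjusted p = 0.0017). In thiram it read 29.03, 30.4, 40.8 and 23.2 CPM against 11.3 to 38.96 CPM (log2 0.53 ± 0.21, adjusted p = 0.046). Both groups overlapped their controls. The thiram call was kept in 3 of 11 alternatives. It was lost without any 1 of the 4 replicate numbers (adjusted p = 0.066 to 0.39), without the filter (0.15), with a term for low- and high-numbered libraries (0.054) and in either set alone (0.32 and 0.62). For arsenic, high-numbered libraries alone did not call the difference (adjusted p = 0.055). In cadmium at 25 µM MTF1 had 10 and 0 counts (log2 -1.65 ± 0.81, adjusted p = 0.23). With the library set aside added, MTF1 and SLC39A10 were called lower in cadmium (log2 -1.72 ± 0.56 and -1.44 ± 0.49, adjusted p = 0.035 and 0.043).

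**Figure D3:**
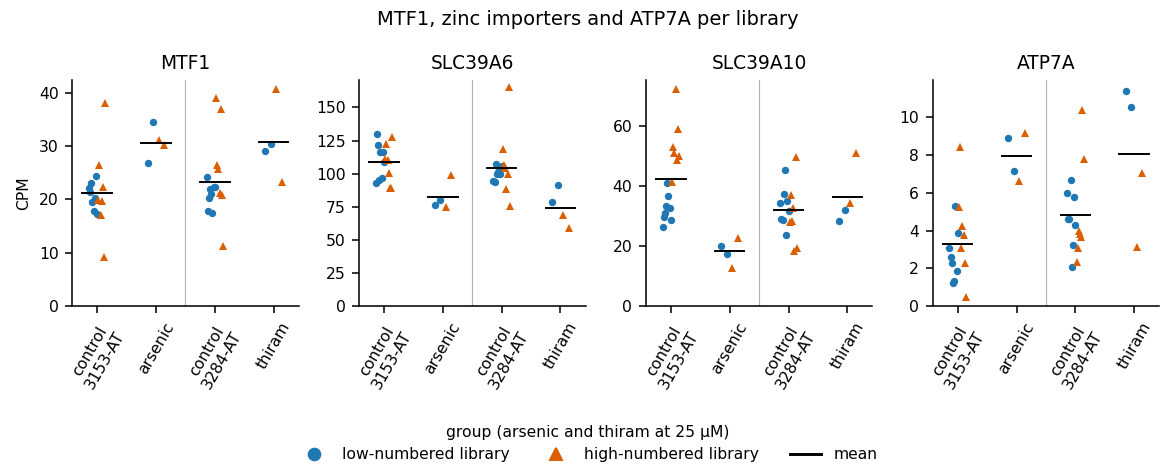
CPM of MTF1, SLC39A6, SLC39A10 and ATP7A, 1 point per library, in arsenic and thiram at 25 µM beside the controls of plates 3153-AT and 3284-AT, with lines for means. SLC39A10 in arsenic (12.6 to 22.7 CPM) lies below all controls (26.5 to 72.3 CPM), while MTF1, SLC39A6 and ATP7A overlap theirs in both chemicals.

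The metallothioneins, known MTF1 targets, were counted beside SLC30A1. Called higher at 25 µM were 5 of 7 tested in arsenic, 4 of 7 in cadmium and 4 of 5 in thiram, with none lower. Of the 8 metallothioneins listed, MT1A, MT1H and MT1M had 0 counts in all 15 controls of plate 3153-AT. Any of these among the 7 tested there passed the filter only through dosed groups and could not be called lower. The counts for arsenic and cadmium are therefore partly set by the filter. Of all genes, 23.2%, 5.67% and 13.7% were called higher in these comparisons. MT1X averaged 408 ± 119 CPM in arsenic (n = 4) and 1008 ± 95.5 CPM in cadmium (n = 2), against 58.1 ± 37.4 CPM in 15 controls, and 1204 ± 275 CPM in thiram (n = 4), against 108 ± 34.5 CPM in 15 controls. Its order (log2 3.92 ± 0.59 in cadmium, 3.37 ± 0.15 in thiram, 2.61 ± 0.39 in arsenic) thus differed from that of SLC30A1 (1.27, 5.13 and 2.54), a comparison between genes that was not tested. In MPB, MT1E and MT1X were lower (log2 -0.48 and -0.57).

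SLC31A1, which brings copper into the cell, rose in arsenic and fell in the 2 cadmium libraries. In arsenic at 25 µM it read 179.7, 195.5, 224 and 193 CPM against 33.5 to 61.5 CPM in the 15 controls. No library overlapped, and the difference was 4.13-fold (log2 2.05 ± 0.10, adjusted p = 1.83e-34; 2.02 in low- and 2.17 in high-numbered libraries). At 2.5 µM arsenic the gene read 43.1, 54.5, 20.2 and 45.1 CPM, with 1 library below the controls (log2 -0.18, adjusted p = 0.60).

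In cadmium at 25 µM SLC31A1 had 4 counts in each of the 2 libraries, or 5.02 and 5.60 CPM, 9.03-fold lower (log2 -3.17 ± 0.64, adjusted p = 0.00011). The cadmium library set aside for its barcode, had 90 counts of SLC31A1, or 68.0 CPM, above every control. With that library added the difference was log2 -0.53 ± 0.30 (adjusted p = 0.34), so the call was made only without it. It was also lost without replicate 1 (adjusted p = 0.0501). The median over all genes in this comparison was log2 -1.42 by edgeR and 0.07 by DESeq2. Values are relative to the library total, so neither fewer cells nor less RNA per cell can be read from this median. Cadmium at 2.5 µM read 42.8 to 49.2 CPM, within the control range.

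Thiram at 25 µM read 67.4, 43.04, 57.9 and 66.6 CPM for SLC31A1 against 38.02 to 55.7 CPM in its controls, without a call by edgeR (log2 0.32 ± 0.15, adjusted p = 0.11) and with one by DESeq2 (log2 0.41, adjusted p = 0.0051). Copper itself left SLC31A1 at 43.1, 36.5, 48.8 and 52.5 CPM at 25 µM (log2 -0.09 ± 0.11, adjusted p = 0.80). None of the 10 genes was called for copper at 25 µM, where 5.09% of all genes were called. Low-numbered libraries alone called ATP7A higher in copper at that dose (log2 1.08 ± 0.37, adjusted p = 0.044).

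**Figure D4:**
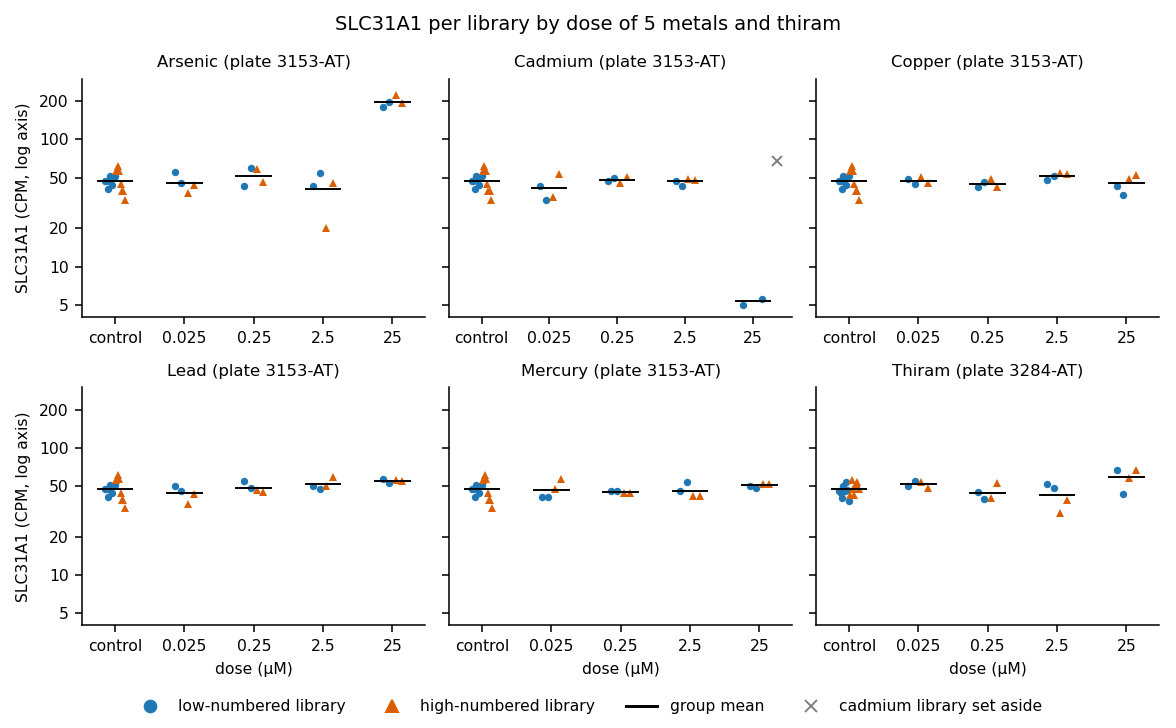
SLC31A1 in CPM on a log axis, 1 point per library, by dose of 5 metals and thiram, with circles for low-numbered and triangles for high-numbered libraries and lines for group means. Arsenic at 25 µM lies at 179.7 to 224 CPM and the 2 cadmium libraries at 5.02 and 5.60 CPM, while the cadmium library set aside (cross) is at 68.0 CPM.

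Among the copper pumps, ATP7A, which loads copper into the secretory pathway and exports it, read 8.90, 7.18, 6.63 and 9.17 CPM in arsenic at 25 µM (51 to 115 counts). The 15 controls read 0.458 to 8.41 CPM, with a median of 3.05 CPM. The difference was 2.75-fold (log2 1.46 ± 0.32, adjusted p = 7.69e-05) with overlapping groups, and high-numbered libraries alone did not call it (log2 0.99, adjusted p = 0.13). ATP7B, the related pump best known from liver, read 2.79, 4.43, 1.56 and 5.35 CPM in arsenic against 0 to 5.67 CPM in the controls (log2 1.45 ± 0.48, adjusted p = 0.0090). That call rests on 142 counts in all, and DESeq2 (adjusted p = 0.052), leaving out replicate 4 (adjusted p = 0.099) and either set of libraries alone (adjusted p = 0.077 and 0.15) did not make it.

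ATP7A read 11.4, 10.5, 3.15 and 7.04 CPM in thiram at 25 µM (log2 0.83 ± 0.43, adjusted p = 0.16). In the 2 cadmium libraries at 25 µM ATP7A, ATP7B and SLC31A2 had 0 counts. A count of 0 allows up to 3 counts over both libraries, or 1.99 CPM. ATP7A was thus at least 1.65-fold below its control mean of 3.27 ± 2.01 CPM, counting error only. Its lowest control, at 0.458 CPM, was under the limit of 1.99 CPM, and the control means of ATP7B and SLC31A2 were under it too. By edgeR ATP7A was not called there and the median over all genes was log2 -1.42, while DESeq2 called ATP7A (log2 -3.56, adjusted p = 0.047). SLC31A2 reached log2 3.31 ± 0.84 in DCP_25 at 25 µM without a call (adjusted p = 0.55), the highest fold change of any member without a call at that dose, from 1.85 CPM on average.

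ATOX1, which hands copper to the pumps, was called in both directions. In cadmium at 25 µM it read 186 and 224 CPM (148 and 160 counts), above the 30.2 to 119.7 CPM of the controls (log2 1.30 ± 0.40, adjusted p = 0.018). Leaving out replicate 1 or replicate 2 lost the call (adjusted p = 0.091 and 0.39). The library set aside read 137 CPM. ATOX1 also separated the controls of this plate by number, at 80.0 to 119.7 CPM in low-numbered and 30.2 to 78.6 CPM in high-numbered ones (log2 0.86 ± 0.20, adjusted p = 0.0031), and both cadmium libraries were low-numbered. Against low-numbered controls alone the cadmium difference was log2 1.07 (adjusted p = 0.016). SLC39A10 was the other member that separated these controls (log2 -0.70 ± 0.16, adjusted p = 0.0021; 26.5 to 41.1 CPM in low-numbered and 41.5 to 72.3 CPM in high-numbered libraries). In that comparison of controls 5.42% of all genes were called. In lead at 25 µM ATOX1 was not called by edgeR (log2 0.43 ± 0.19, adjusted p = 0.24) or DESeq2. With a term for low- and high-numbered libraries edgeR called it higher (log2 0.48 ± 0.11, adjusted p = 0.0016). Low-numbered libraries alone also did (log2 0.51 ± 0.12, adjusted p = 0.0035).

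**Figure D5:**
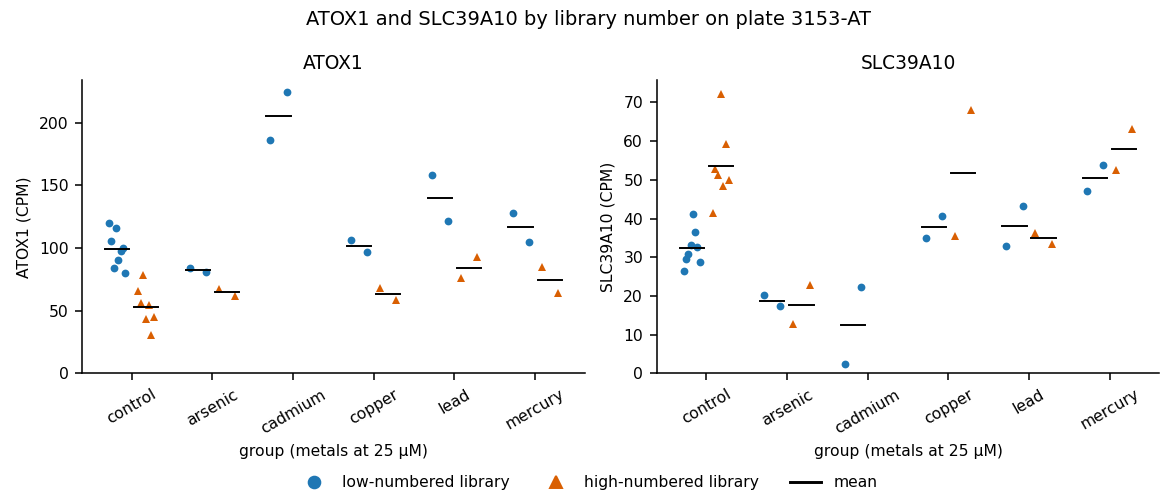
ATOX1 and SLC39A10 in CPM (axes start at 0), 1 point per library, in the controls and the 5 metals at 25 µM of plate 3153-AT, with circles for low-numbered and triangles for high-numbered libraries and lines for their means. Low-numbered controls lie at 80.0 to 119.7 CPM for ATOX1 and at 26.5 to 41.1 CPM for SLC39A10, above and below all high-numbered ones respectively; cadmium has low-numbered libraries only.

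On plate 3206-AT ATOX1 was lower in MPB at 25 µM (75.9, 53.5, 75.1 and 67.8 CPM) and at 2.5 µM (66.8, 82.3, 57.8 and 53.2 CPM) and in BPA at 2.5 µM (61.3, 63.3, 75.8 and 71.9 CPM). The 15 controls read 68.2 to 117 CPM with a median of 94.5 CPM, so each group overlapped them. The log2 differences were -0.46 ± 0.13 (adjusted p = 0.038), -0.54 ± 0.13 (adjusted p = 0.021) and -0.46 ± 0.12 (adjusted p = 0.048). At 2.5 µM 0.915% of all genes were called in MPB and 0.605% in BPA. PPB at 25 µM had a fall of the same size (log2 -0.48 ± 0.14) that was not called (adjusted p = 0.50). Leaving out any 1 replicate number lost the BPA call (adjusted p = 0.081 to 0.26), and leaving out replicate 1, 2 or 4 lost that of MPB at 25 µM (adjusted p = 0.053 to 0.27). The MPB call at 2.5 µM was lost without replicate 3 or 4 (adjusted p = 0.33 and 0.23), and low-numbered libraries alone gave log2 -0.23 (adjusted p = 1).

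CCS, the chaperone of superoxide dismutase SOD1, was called by edgeR in none of the 21 chemicals at 25 µM. Its log2 fold change at 25 µM ranged from -0.56 ± 0.16 in PPB (adjusted p = 0.51) to 0.32 ± 0.17 in PCB187 (adjusted p = 0.83), and 3 of its 21 differences had an unadjusted p under 0.05. In cadmium its 2 libraries read 37.7 and 7.002 CPM. Its client SOD1 was higher in arsenic, cadmium and thiram (log2 0.87 ± 0.11, 0.85 ± 0.18 and 0.42 ± 0.08, each called).

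Over the lower doses, 4 of 210 pairs were called at 2.5 µM, where 0.412% of all gene tests were called: SLC30A1 in cadmium and thiram, higher, and ATOX1 in BPA and MPB, lower. At 0.25 and 0.025 µM edgeR called 0 of 210 each (background 0.0748% and 0.0104%), with 17 at an unadjusted p under 0.05 at each dose and 0 and 1 calls by DESeq2. A linear trend over the log of the 4 doses, which uses no control, was called for 8 of 210 pairs (3.12% of all gene tests). In arsenic, 4 of 10 genes had a trend (29.7% of all genes): SLC30A1 and SLC31A1 rose by 0.70 ± 0.06 and 0.61 ± 0.04 log2 per 10-fold dose, and SLC39A10 and SLC39A6 fell by 0.31 ± 0.07 and 0.16 ± 0.04. In cadmium, 2 of 10 had one (8.96%), with SLC30A1 at 0.43 ± 0.14 and SLC31A1 at -0.89 ± 0.20 (adjusted p = 0.035 and 0.0010). Neither was called without replicate 1 (adjusted p = 0.25 and 0.13) or without replicate 2 (0.54 and 0.058), and SLC31A1 was not called with the library set aside added (adjusted p = 0.86). In thiram, 2 of 10 had one (18.5%), with SLC30A1 at 1.46 ± 0.06 and MTF1 at 0.23 ± 0.08. The thiram trend of MTF1 was kept in 7 of 12 alternatives. It was lost without replicate 1 (adjusted p = 0.11) or 3 (0.35), without the filter (0.090) and in low- and high-numbered libraries alone (0.46 and 0.15). The arsenic trend of SLC39A6 was lost in low-numbered libraries alone (adjusted p = 0.083). With the replicate number as a block, lead had 2 trends, where 3.55% of all genes were called: SLC30A1 at 0.18 ± 0.05 and ATOX1 at 0.14 ± 0.04 per 10-fold dose (adjusted p = 0.0066 and 0.016). The block added ATOX1 in cadmium, at 0.28 ± 0.09 (adjusted p = 0.043, 6.98% of all genes called). At 2.5 µM arsenic SLC30A1 read 24.1 to 43.9 CPM, against 179.8 to 209.8 CPM at 25 µM. The cadmium slope of SLC31A1 rests on the 2 libraries at 25 µM, since at 2.5 µM the gene lay within the control range.

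The metals were also compared directly at 25 µM, without controls, and 21 of 100 tests over 10 pairs were called. Arsenic differed from copper in 5 of 10 genes, from lead in 4, from mercury in 3 and from cadmium in 3, against 32.5%, 33.1%, 34.4% and 8.56% of all genes. SLC30A1 was higher in arsenic than in each of the other metals, by log2 2.62 ± 0.20 against mercury, 2.41 ± 0.20 against copper, 1.95 ± 0.19 against lead and 1.27 ± 0.39 against cadmium (adjusted p = 3.78e-20, 1.06e-18, 7.20e-15 and 0.021). SLC31A1 was higher in arsenic as well, by 2.13 ± 0.13 against copper, 1.97 ± 0.13 against mercury and 1.85 ± 0.13 against lead. Against cadmium it was higher by 5.22 ± 0.50 (adjusted p = 9.73e-15), and by 2.58 with the library set aside added (adjusted p = 2.08e-12). SLC39A10 was lower in arsenic than in copper, lead and mercury (log2 -1.25, -0.97 and -1.53), and SLC39A6 than in copper (log2 -0.52; -0.36 in high-numbered libraries alone, adjusted p = 0.10). ATP7A was higher in arsenic than in lead (log2 1.05 ± 0.36, adjusted p = 0.018), and ATP7B than in copper (log2 1.49 ± 0.57, adjusted p = 0.035). The first was lost without replicate 2 or 4 (adjusted p = 0.065 and 0.17) and in low- and high-numbered libraries alone (0.14 and 0.052). The second was lost without replicate 2, 3 or 4 (0.13, 0.052 and 0.24), in DESeq2 (0.11) and in either set alone (0.27 and 0.088).

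Cadmium differed from copper in 2 genes, from lead in 1 and from mercury in 3, against 9.29%, 8.94% and 9.99% of all genes. DESeq2 called 6 of 10 genes in each of these 3 pairs, against 24.1%, 23.3% and 24.8% of all genes. SLC31A1 was lower in cadmium than in copper, lead and mercury (log2 -3.09, -3.37 and -3.26), none of which was called with the library set aside included (adjusted p = 0.56, 0.16 and 0.28). ATOX1 was higher in cadmium than in copper (log2 1.30 ± 0.42, adjusted p = 0.032) and arsenic (arsenic minus cadmium -1.48 ± 0.43, adjusted p = 0.015). SLC30A1 was higher in cadmium than in mercury (log2 1.35 ± 0.45, adjusted p = 0.041), and SLC39A10 lower (log2 -2.17 ± 0.72, adjusted p = 0.037). This last call was kept in 4 of 11 alternatives, with log2 values of -4.42 to -1.31 and adjusted p up to 0.70, and was lost with the replicate number as a block (adjusted p = 0.081), where 7.59% of all genes were called. The block added ATOX1, higher in cadmium than in mercury (log2 0.86 ± 0.29, adjusted p = 0.0499). The calls of ATOX1, SLC30A1 and SLC39A10 in pairs with cadmium were each lost without replicate 1 (adjusted p = 0.064 to 0.70) and without replicate 2 (adjusted p = 0.083 to 0.50). Between copper, lead and mercury edgeR called none of 30 tests, with 5 at an unadjusted p under 0.05 and none called by DESeq2. The library numbers pair the doses within copper, within lead and within mercury, and pairing between metals was not checked. The replicate number as a block takes such pairing to hold. With it, 3 of these 30 were called and 7 had an unadjusted p under 0.05. SLC30A1 was higher in lead than in mercury (log2 0.69 ± 0.15, adjusted p = 0.00097; 0.67 ± 0.21 and 0.14 without the block). SLC39A10 was lower in lead than in mercury (-0.55 ± 0.14, adjusted p = 0.011), and ATOX1 lower in copper than in lead (-0.42 ± 0.13, adjusted p = 0.038). With the block 2.97% of all genes were called for lead against mercury, 2.63% for copper against lead and 5.33% for copper against mercury. Without it they were 0.827% for copper against lead, 1.51% for copper against mercury and 0.416% for lead against mercury.

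Chemicals of like kind on 1 plate were compared at matched doses in 8 pairs: BPA, BPF and BPS, MPB and PPB, PCB153 and PCB187, and PFDA, PFNA and PFOS. None of the 80 tests at 25 µM and none of the 80 at 2.5 µM was called by edgeR or DESeq2, with 5 and 13 at an unadjusted p under 0.05 by edgeR. Over all genes 0.00414% and 0.000592% were called. For SLC30A1 at 25 µM the widest interval was that of PCB153 minus PCB187, log2 -0.09 with a 95% interval (normal approximation) of -0.47 to 0.29. ATOX1 at 2.5 µM, called in MPB and BPA against controls, was lower in MPB than in PPB by log2 0.49 (95% interval -0.80 to -0.18, adjusted p = 0.27) and lower in BPA than in BPF by 0.42 (-0.72 to -0.12, adjusted p = 0.74). High-numbered libraries alone called the difference between MPB and PPB (log2 -0.64, adjusted p = 0.0052). PFOA was given in water and was not compared with the other fluorinated chemicals.

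The other genes of zinc and copper handling numbered 42, of which 41 were listed in run 2 and 31 in run 1, and 56 of their differences were called at 25 µM. In arsenic 9 of 38 tested were higher and 12 lower, in thiram 6 and 11 of 36, in cadmium 3 and 5 of 38, in copper 2 and 2 of 38, in lead 2 and 1 of 38 and in DDE 3 and 0 of 31. Called in either direction were 41.4% of all genes in arsenic, 25.9% in thiram, 11% in cadmium, 5.09% in copper, 3.85% in lead and 7.77% in DDE. The median log2 fold change of the list was -0.17 in arsenic (0.0014 over all genes), -0.33 in thiram (-0.11) and -1.05 in cadmium (-1.42). Of the zinc importers, SLC39A4, the intestinal uptake importer, had the largest called fall in arsenic (log2 -2.19 ± 0.19), SLC39A3 in cadmium (-3.52 ± 0.81) and SLC39A8, which also carries cadmium and manganese, in thiram (-2.12 ± 0.27). SLC39A4 was higher in DDE (0.99 ± 0.31, adjusted p = 0.047) and SLC39A13, which releases zinc from the secretory pathway, in copper (0.55 ± 0.11).

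Of the genes that deliver copper to cytochrome oxidase, COX19 had the largest called rise of the list in arsenic (log2 1.29 ± 0.17) and in cadmium (1.66 ± 0.52), and COA6 that in lead (0.57 ± 0.10). LOX, a secreted copper enzyme that cross-links collagen, had the largest called fall in copper (-1.08 ± 0.31, adjusted p = 0.023) and in lead (-1.23 ± 0.32, adjusted p = 0.010). XIAP, an inhibitor of apoptosis that also binds copper, had the largest called rise in thiram (1.26 ± 0.27). By group, 3 of 7 zinc exporters and vesicle loaders rose and 1 fell in arsenic (41.4% of all genes called), and 1 of 6 rose and 3 fell in thiram (25.9%), so nothing particular to this group is read from these counts.

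The genes whose pattern over the 84 dosed groups was most like that of SLC30A1 were GADD45A, PALLD, RND3, GADD45B and NXF1, with Pearson r of 0.86 to 0.87 among 10296 genes ranked. This is a description over groups that share plates and library depth. GADD45A, a growth arrest and DNA damage gene, was at log2 4.33 in thiram, 3.56 in arsenic and 2.39 in cadmium, and GADD45B at 4.12, 2.31 and 3.30. Without the 25 µM groups of those 3 chemicals GADD45A dropped to r = 0.30 and rank 131, and PPP1R15A, a gene of the integrated stress response, came first (r = 0.60), followed by HMOX1, HSPA1A, DNAJB1 and ZFAND2A. MT1X had r = 0.75 and rank 108 over all groups, and r = 0.45 and rank 20 without them. Of the 6 members abundant enough to be ranked beside SLC30A1, SLC31A1 had r = 0.18, ATOX1 0.09, MTF1 0.04, CCS -0.11, SLC39A10 -0.23 and SLC39A6 -0.50.

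Between water and DMSO controls of plate 3240-AT no member was called by edgeR or DESeq2, with 2 of 10 at an unadjusted p under 0.05 (SLC39A10 and SLC39A6, log2 0.35 and 0.21), where 4.08% of all genes were called. Between low- and high-numbered controls no member was called on plates 3206-AT, 3240-AT and 3284-AT, with 0, 1 and 3 of 10 at an unadjusted p under 0.05, where 1.69%, 0.148% and 1.55% of all genes were called. SLC30A1 was lower in the low-numbered controls of plate 3284-AT (log2 -0.54 ± 0.20, adjusted p = 0.18) and of plate 3153-AT (-0.47 ± 0.18, adjusted p = 0.12). The part of depth in these differences was not tested.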

How the data were processed

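Each library had 1 deposited table of raw counts by gene symbol, not normalized by the authors, as judged from the values (whole numbers with differing totals). STAR, featureCounts and GRCh38 are named in the submitters' processing notes without settings. Their versions, the use of strand and any filter on genes are not stated there. No molecular identifiers are mentioned, so counts are reads, and limits from counts cover counting error only.

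Each plate was fitted alone in edgeR 4.0.16 (R 4.3.3) with 1 mean per chemical and dose and per control group. Genes were kept by filterByExpr (minimum count 10, minimum total 15), totals scaled by TMM, and glmQLFit run with dispersion from the top 5% of genes. P-values were adjusted by Benjamini-Hochberg over all genes of a comparison. Depth was 1.43 to 25.8 M counts per library, and all 10 members passed the filter on every plate. Library number pairs dosed libraries across doses by the data (every same-number correlation over 0.1) in 5 of 20 chemicals: cadmium (3 lower doses), copper, lead, mercury and PFOA. Pairing between chemicals was not checked, and the replicate block gives each number the same effect in all chemicals of a plate. Where no separate cultures are named, p-values measure the spread between wells.

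All 10 members are named. Other zinc and copper genes named are, per chemical with a call, the largest called rise and fall at 25 µM, and 5 genes most like SLC30A1 are named by Pearson r of group means of log2(CPM + 1) centred on each plate's dosed groups, among genes tested on all 5 plates whose average log2 CPM reached 2 on each. SOD1, the metallothioneins and the genes that lead without 3 groups were chosen after values were seen. The members and lists were chosen with earlier results of these data known, and the pairs of like chemicals were added after the other results. DESeq2 1.42.0, RLE scaling, no filter, left-out replicates, low- or high-numbered libraries and a replicate block were tried. The tests were checked on simulated counts. Promoters and coordinates are RefSeq GRCh38.p14.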

Additional observations from a re-analysis of the deposited data

Results flagged for a closer look

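A cadmium library at 25 µM was in no comparison, since its title carries the barcode of plate 3284-AT while its plate name is 3153-AT. It is reported here because 4 of the 10 genes lay above all 15 controls of plate 3153-AT in it. How many of all genes did so was not counted, so nothing particular to the members is read from that count. SLC30A1 was at 74.8 CPM (99 counts), close to the 75.3 and 86.8 CPM of the 2 cadmium libraries tested. ATOX1 was at 136.8 CPM (181 counts), below their 186 and 224 CPM. SLC31A1 was at 68.0 CPM (90 counts), where those libraries had 5.02 and 5.60 CPM. ATP7B was at 14.4 CPM (19 counts), where they had 0 counts. The library's total was 1.28 M counts, and which plate its RNA came from was not tested. No library stood apart in any of the 16 called pairs of gene and group, each with 4 libraries, that were examined for an outlying value. Several of these pairs share a group.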

How the results depend on the processing

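Of the 15 calls at 25 µM, 5 were made in high-numbered libraries alone, which hold no cadmium group at that dose, and 10 to 12 when 1 replicate number was left out. Of the 4 calls at 2.5 µM, low-numbered libraries alone gave 2, and leaving out a replicate gave 1 to 3. At 0.25 µM the count of 0 became 1 without the filter and 1 with the end numbers of DDE left out, and 0 to 1 with a replicate left out. At 0.025 µM it became 1 in DESeq2, 1 without the filter and 2 in high-numbered libraries alone, and stayed at 0 with a replicate left out. The 8 trends became 13 in DESeq2, 5 in high-numbered libraries alone and 5 to 8 with a replicate left out. The 21 calls between metals became 38, 12 and 15 to 19 in the same order. Over all genes DESeq2 called 24.1% for cadmium against copper, 23.3% against lead and 24.8% against mercury, where edgeR called 9.29%, 8.94% and 9.99%. For the other counts in this paragraph no share of all genes is given, so they are not read as results about the members. Between like chemicals at 2.5 µM the count of 0 became 1 in high-numbered libraries alone and 0 to 1 with a replicate left out, and the 56 calls of other zinc and copper genes became 46 to 50. With the replicate block there were 11 trends, 28 calls between metals and 0 between like chemicals, and 28 of 29 single calls that could be fitted were kept. Of 48 single calls, DESeq2 kept 44, RLE scaling 46, no filter 46 and low-numbered libraries alone 38, and no direction reversed in any of these alternatives. High-numbered libraries alone kept 20 of 34. DESeq2 moved the median of all genes by 1.49 on the log2 scale in cadmium at 25 µM, 0.15 in arsenic and 0.10 in thiram. Where no value shows it, the cause was not tested. Leaving out totals under 3 M drops both cadmium libraries at 25 µM. Cadmium at 25 µM is limited by depth, with 8 counts of SLC31A1 in all.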
